A study of Rattus norvegicus with 4 samples.

Results

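Voltage-gated sodium and calcium channels open when the membrane depolarises, and each is built from a pore-forming subunit and several auxiliary subunits. The genes described here encode these subunits. The scanner files name probes by accession and hold no column of gene names, so the name patterns Cacna, Cacnb, Cacng and Scn followed by a digit were applied to current RefSeq symbols paired with those accessions. Of 40 genes with such symbols in the RefSeq table, 38 had a probe on the array, through 51 probes in all. Cacna1d and Scn7a had no probe matched in this way and are not analysed here. The brightest probe over the 4 arrays stood for its gene, and 25 of the 38 genes entered a fit of 23155 features.

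The samples were cultures of rat oligodendrocyte precursor cells (OPCs), the proliferating cells from which myelinating oligodendrocytes arise. Per the labels, the cells were isolated from cortex on postnatal day 2 and kept for 3 days with bFGF and PDGF. Both groups were transfected with Lipofectamine RNAiMax at 50 nM and harvested 48 h later, and they differed in the RNA delivered, either a negative control RNA (miR-neg, 2 samples) or a miR-125a-3p mimic, a synthetic form of that microRNA (2 samples). The labels give no genotype or strain, and nothing in them says that samples within a group had separate animals or cultures as their source. The p-values therefore cover only how far these samples spread, which may be technical. Total RNA was hybridised to 1-colour Agilent arrays, 1 array per sample, with 75th percentiles of the intensity from 679 to 745, and the comparison asks which transcripts differ when the microRNA is raised.

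The delivered microRNA is shown because it is the only agent that differs between the groups. It comes from the same hairpin as miR-125a-5p, and the seed (bases 2 to 8, in capitals), which pairs with target RNAs, differs between the arms. Both mature sequences are from RefSeq, build GRCr8, plus strand, at chr1:67350727-67350748 for the 3p arm and chr1:67350689-67350712 for the 5p arm. The mimic's own sequence is not stated in the sources used here.
rno-miR-125a-3p: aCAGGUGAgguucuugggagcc
rno-miR-125a-5p: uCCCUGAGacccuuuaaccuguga
Of 724 mature rat microRNAs in the table, 1 carried the seed of miR-125a-3p, which is miR-125a-3p itself, and 3 carried that of miR-125a-5p.

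In a sodium channel the alpha subunit (genes such as Scn2a) forms the pore, and the beta subunits (genes such as Scn3b) are single-pass membrane proteins with an immunoglobulin domain that modulate gating and act in cell adhesion. In a high-voltage calcium channel the alpha1 subunit forms the pore, an intracellular beta subunit and an extracellular alpha2delta subunit bring it to the membrane, and gamma subunits associate with it in muscle. Most other gamma proteins are transmembrane regulators of AMPA-type glutamate receptors (TARPs). OPCs are known for carrying both kinds of voltage-gated channel, which are lost as the cells mature into oligodendrocytes.

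Channel subunits of nearly every class were measured in these cultures, and 0 of the 25 genes in the fit passed an adjusted p of 0.05 in limma, where 0.687% of all 23155 features did, 0.38% higher and 0.307% lower. An unadjusted p under 0.05 was reached by 5 of the 25, 2 higher and 3 lower after the mimic, against 19.5% of all features in either direction, 10.5% higher and 8.97% lower. They included the sodium beta subunit gene Scn3b (difference -0.34), the calcium beta subunit gene Cacnb3 (-0.29) and the calcium pore genes Cacna1b (-0.25) and Cacna1c (0.28), all as log2 differences, miR-125a-3p minus miR-neg. The 24 differences reported here lay between -0.44 and 0.37, and 0 of the 25 were over 0.5 in size, whereas 9.6% of all features had such a difference. With 1 array left out, some did exceed 0.5, and the largest size was 0.86 without miR-neg replicate 1, 1.55 without miR-neg replicate 2 (both for Scn4a), 0.60 without miR-125a-3p replicate 1 and 0.63 without miR-125a-3p replicate 2. The count at an unadjusted p under 0.05 was 3 without miR-neg replicate 1, 8 without miR-neg replicate 2, 2 without miR-125a-3p replicate 1 and 0 without miR-125a-3p replicate 2. Position along 1 axis of the slide followed the groups, so it and the treatment cannot be told apart.

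Detection is described first, since it decides which genes could be tested. A probe counts as detected on an array where the scanner software flagged it as well above background, and signals below are log2 values relative to the array's 75th percentile. Probes differ in how well they hybridise, so signals are compared between arrays for a gene and not between genes. Of the 38 genes, 23 were well above background on all 4 arrays, 2 on 2 arrays, 4 on 1 array and 9 on 0 arrays. The 13 genes on 0 or 1 array were left out of the fit, and their intensities lay between 3.03 and 20.9 scanner units.

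**Figure D1:**
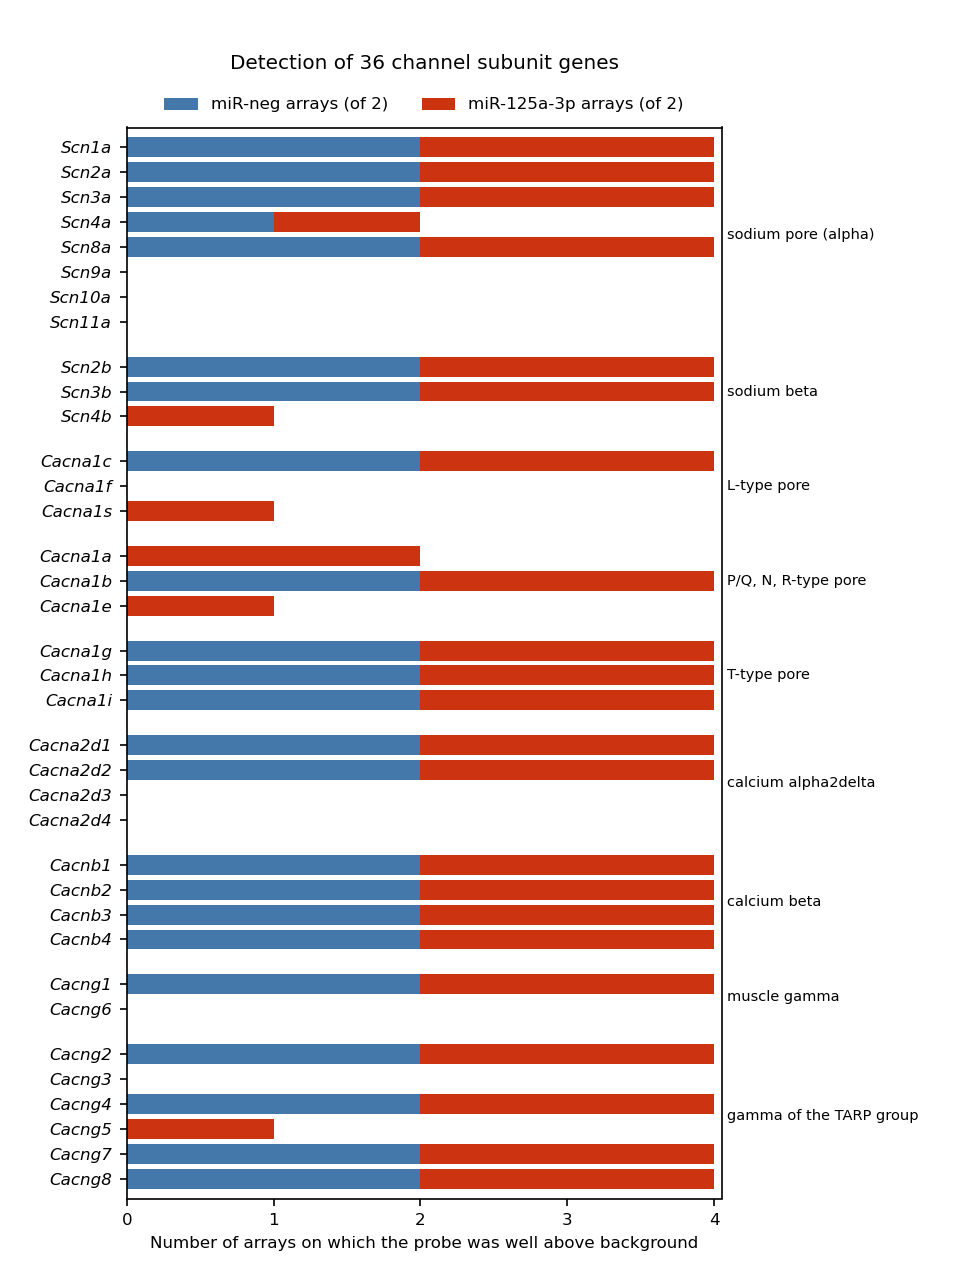
Number of arrays (x axis, 0 to 4) on which the brightest probe of each of 36 channel genes was well above background, with miR-neg arrays in blue and miR-125a-3p arrays in red, ordered by subunit class. A full bar of 4 arrays is seen for 22 genes, and no bar for 8.

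Detection among the pore genes is described by the tissue each is known from. Of the sodium pore genes, Scn1a, Scn2a, Scn3a and Scn8a, the pores of central neurons, had probes detected on each of the 4 arrays. The pores of peripheral sensory neurons, Scn9a, Scn10a and Scn11a, were so on 0 arrays, and the skeletal muscle pore Scn4a was so on 1 array of each group. Of the calcium pore genes, the retinal L-type gene Cacna1f was detected on 0 arrays and the skeletal muscle L-type gene Cacna1s on 1. The 3 T-type genes (Cacna1g, Cacna1h and Cacna1i), which open at weak depolarisation, and all 4 calcium beta genes were detected on all 4 arrays.

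Among auxiliary subunits, the alpha2delta genes Cacna2d1 and Cacna2d2 were detected on all 4 arrays, and Cacna2d3 and Cacna2d4 on 0. Cacng1, a gamma gene of skeletal muscle calcium channels, was detected on all 4 arrays, and its relative Cacng6 on 0. Of the 6 TARP genes, Cacng2, Cacng4, Cacng7 and Cacng8 were detected on all 4 arrays, Cacng5 on 1 and Cacng3 on 0. The 4 genes detected on 1 array were Scn4b, Cacna1e and Cacng5, on miR-125a-3p replicate 1, and Cacna1s, on miR-125a-3p replicate 2. Replicate 1 of the mimic was also the array with the most flagged probes of any kind. The share of all probes detected on 1 array only was not counted. Probes of any kind flagged in this way numbered 26332 and 26822 for miR-neg and 28138 and 26902 for the mimic, and whether this bears on the 4 genes was not tested.

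Several channel genes sit side by side in the genome, and detection differed between such neighbours. In the order of protein-coding genes in the RefSeq table, Scn2b (4 arrays) stands next to Scn4b (1 array), and Scn1a (4 arrays) next to Scn9a (0 arrays). Cacng4 (4 arrays) lies between Cacng1 (4 arrays) and Cacng5 (1 array), and Cacng8 (4 arrays) between Cacng6 (0 arrays) and Cacng7 (4 arrays). The neighbours Scn3a and Scn2a were detected on all 4 arrays. These are descriptions of single probes.

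**Figure D2:**
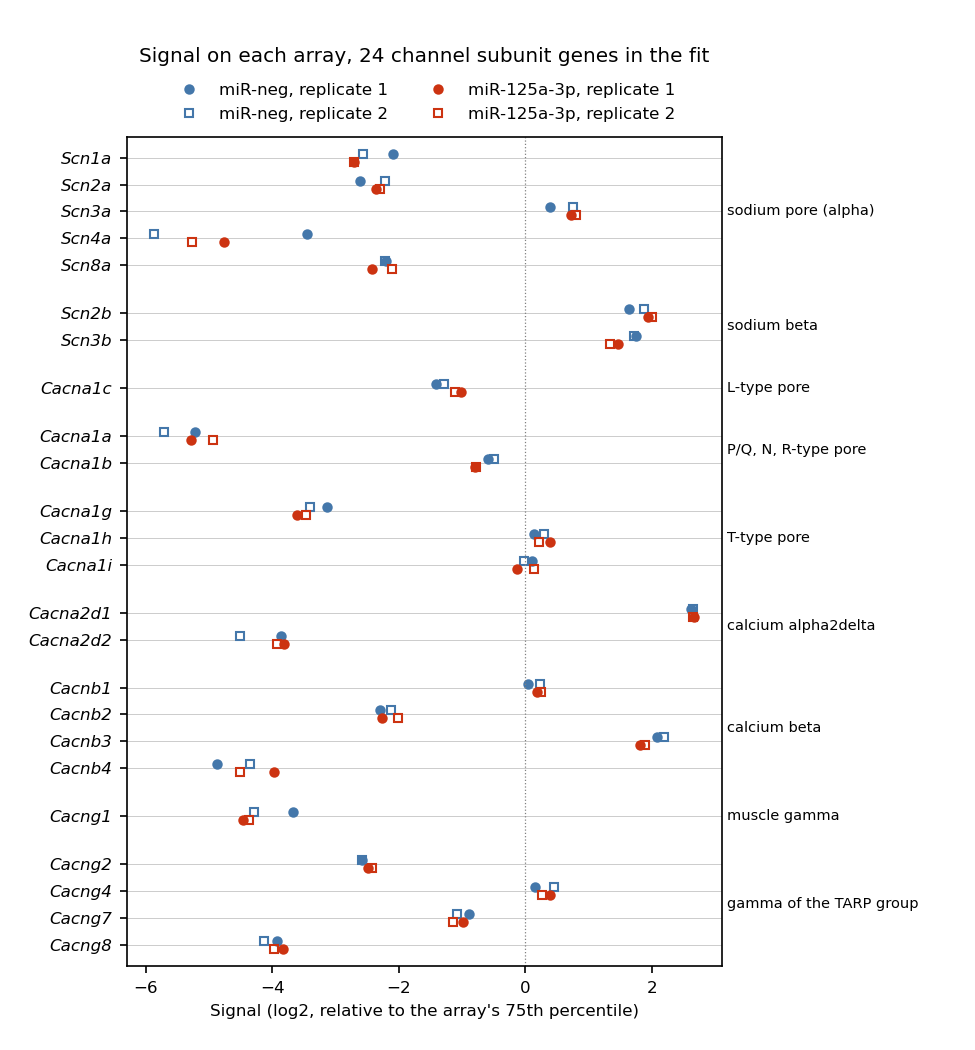
Signal on each of the 4 arrays (x axis, log2 relative to the array's 75th percentile) for 24 channel genes in the fit, with miR-neg in blue and miR-125a-3p in red, replicate 1 as filled circles and replicate 2 as open squares. Most genes show overlapping or adjacent groups, and Scn4a shows the widest spread, from -5.88 to -3.46 within miR-neg.

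The pores of neuronal sodium channels did not pass the test. Scn1a, the pore of many inhibitory neurons, had signals of -2.10 and -2.57 in miR-neg and -2.71 and -2.71 in miR-125a-3p. Both mimic arrays lay below both control arrays, and the difference was -0.38 (SE 0.18, n = 2 per group, adjusted p = 0.348 in limma). It was -0.14 without miR-neg replicate 1, -0.61 without miR-neg replicate 2 and -0.19 with normexp, another background correction. Scn2a, the pore of immature axons, gave -2.61 and -2.21 in miR-neg and -2.36 and -2.31 in miR-125a-3p, with the mimic arrays inside the range of the controls.

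Scn3a, a sodium pore most abundant in the developing brain, had signals of 0.39 and 0.75 in miR-neg and 0.72 and 0.81 in miR-125a-3p. The groups overlapped, and the difference was 0.19 (SE 0.15, n = 2 per group, adjusted p = 0.532 in limma). It was 0.016 without miR-neg replicate 1, 0.37 without miR-neg replicate 2 and 0.039 as the mean of its probes. Scn8a, the pore of mature nodes of Ranvier, gave -2.21 and -2.23 in miR-neg and -2.42 and -2.11 in miR-125a-3p, again overlapping. The muscle pore gene Scn4a gave -3.46 and -5.88 in miR-neg and -4.76 and -5.27 in miR-125a-3p, so the control arrays stood further apart than any pair across the groups. Its difference of -0.34 had a 95% interval from -2.72 to 2.03, and it was 0.86 without miR-neg replicate 1, -1.55 without miR-neg replicate 2, -0.60 without miR-125a-3p replicate 1, -0.091 without miR-125a-3p replicate 2 and -0.15 with normexp.

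No sodium beta subunit gene in the fit passed over all features. Scn3b had signals of 1.75 and 1.73 in miR-neg and 1.46 and 1.35 in miR-125a-3p. Both mimic arrays were below both controls, with a difference of -0.34 (SE 0.08, n = 2 per group, adjusted p = 0.161 in limma). A variance trend in limma, which lets the spread depend on signal, gave an adjusted p of 0.0256, where the range over all settings was 0.0256 to 0.483. Leaving out any 1 array gave differences from -0.39 to -0.28.

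Scn2b had signals of 1.65 and 1.89 in miR-neg and 1.94 and 2.00 in miR-125a-3p. The groups did not overlap, though their gap was smaller than the distance between the control arrays, and the difference was 0.21 (SE 0.11, n = 2 per group, adjusted p = 0.404 in limma). It was 0.33 as the mean of its probes. The second of these was dim (-4.90 and -5.76 in miR-neg, -4.58 and -5.17 in miR-125a-3p) and not well above background on miR-neg replicate 2. The difference was 0.087 without miR-neg replicate 1, the smallest over all settings, and above 0.21 without miR-neg replicate 2.

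Among calcium pores of the high-voltage group, the L-type gene Cacna1c, which encodes the main L-type pore of heart and much of the brain, had signals of -1.42 and -1.29 in miR-neg and -1.02 and -1.12 in miR-125a-3p. Both mimic arrays were above both controls, with a difference of 0.28 (SE 0.09, n = 2 per group, adjusted p = 0.223 in limma). Its second kept probe differed by -0.27 but was dim, with signals of -4.13 and -4.87 in miR-neg and -4.36 and -5.17 in miR-125a-3p. That probe was not well above background on miR-125a-3p replicate 2. Its arrays within a group stood further apart than its group means. The mean of the kept probes differed by 0.0086. A further probe, well above background on 0 arrays, differed by -0.30. The direction for Cacna1c thus depends on the probe, and only the brightest was well above background on all 4 arrays.

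Cacna1b, the N-type pore of presynaptic terminals, gave -0.58 and -0.50 in miR-neg and -0.80 and -0.78 in miR-125a-3p. Both mimic arrays were below both controls, and the difference was -0.25 (SE 0.08, n = 2 per group, adjusted p = 0.22 in limma), with -0.16 at a second kept probe and -0.17 with normexp. Cacna1a, the P/Q-type pore, was well above background on both mimic arrays and on neither control array, with signals of -5.22 and -5.72 in miR-neg and -5.29 and -4.94 in miR-125a-3p. The groups overlapped, and the means of the measured signals were -5.47 and -5.11 (adjusted p = 0.461 in limma). Since neither control array measured the gene well above background, the difference of 0.35 between these means is not a measured fold. That difference was 0.11 without miR-neg replicate 2, 0.60 without miR-neg replicate 1 and 0.050 with normexp. The second probe of Cacna1a was well above background on 0 arrays. The R-type pore gene Cacna1e was detected on 1 array and was not tested.

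None of the T-type pore genes passed the test. Cacna1g had signals of -3.13 and -3.41 in miR-neg and -3.61 and -3.47 in miR-125a-3p. The mimic arrays lay below the controls, and the difference was -0.27 (SE 0.13, n = 2 per group, adjusted p = 0.365 in limma), with extremes of -0.41 without miR-neg replicate 2 and -0.13 without miR-neg replicate 1, and -0.13 with normexp. Cacna1h gave 0.13 and 0.30 in miR-neg and 0.40 and 0.22 in miR-125a-3p, and Cacna1i gave 0.11 and -0.028 against -0.13 and 0.14. The groups overlapped for both.

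Cacna2d1 encodes an alpha2delta protein that binds gabapentin. Its signals were 2.63 and 2.65 in miR-neg and 2.68 and 2.65 in miR-125a-3p. The arrays of both groups lay within a narrow range, and the difference was 0.021 (SE 0.07, n = 2 per group, 95% interval -0.18 to 0.23, adjusted p = 0.906 in limma). A second probe, whose accession is that of another transcript, differed by 0.045. Cacna2d2 gave -3.87 and -4.52 in miR-neg and -3.81 and -3.93 in miR-125a-3p, with overlapping groups and a control spread wider than the difference of the group means.

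The calcium beta subunits, which bind the pore from inside the cell, were all in the fit. Cacnb3 had signals of 2.08 and 2.20 in miR-neg and 1.82 and 1.89 in miR-125a-3p. Both mimic arrays were below both controls, with a difference of -0.29 (SE 0.09, n = 2 per group, adjusted p = 0.206 in limma). With a variance trend the adjusted p was 0.0465, where the range over all settings was 0.0465 to 0.516, and leaving out any 1 array gave differences from -0.34 to -0.23.

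The other 3 calcium beta genes overlapped between the groups. Cacnb1 gave 0.040 and 0.24 in miR-neg and 0.19 and 0.26 in miR-125a-3p. Cacnb2 gave -2.30 and -2.13 against -2.27 and -2.02, and Cacnb4 gave -4.88 and -4.35 against -3.98 and -4.51. Their differences were 0.084, 0.071 and 0.37 in that order, and that of Cacnb4 was 0.052 with normexp, 0.10 without replicate 1 of either group and 0.63 without replicate 2 of either group.

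Cacng1, the gamma subunit first known from skeletal muscle, had signals of -3.68 and -4.29 in miR-neg and -4.47 and -4.38 in miR-125a-3p. The mimic arrays lay below the controls, but the controls differed from each other by more than the group means did, and the difference was -0.44 (SE 0.23, n = 2 per group, adjusted p = 0.381 in limma). It was -0.13 without miR-neg replicate 1, -0.74 without miR-neg replicate 2 and -0.19 with normexp.

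None of the 4 TARP genes in the fit passed the test. Cacng4 gave 0.15 and 0.45 in miR-neg and 0.39 and 0.26 in miR-125a-3p, with the mimic arrays inside the range of the controls and a difference of 0.026 (SE 0.14, n = 2 per group, 95% interval -0.35 to 0.40, adjusted p = 0.936 in limma). Cacng7 gave -0.89 and -1.08 in miR-neg and -0.98 and -1.14 in miR-125a-3p, and its groups overlapped. Cacng2, stargazin, which carries AMPA receptors to the synapse, gave -2.58 and -2.59 against -2.49 and -2.42, and Cacng8 gave -3.93 and -4.13 against -3.84 and -3.98. The mimic arrays of Cacng2 lay above its controls, with a difference of 0.13, and those of Cacng8 overlapped them.

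**Figure D3:**
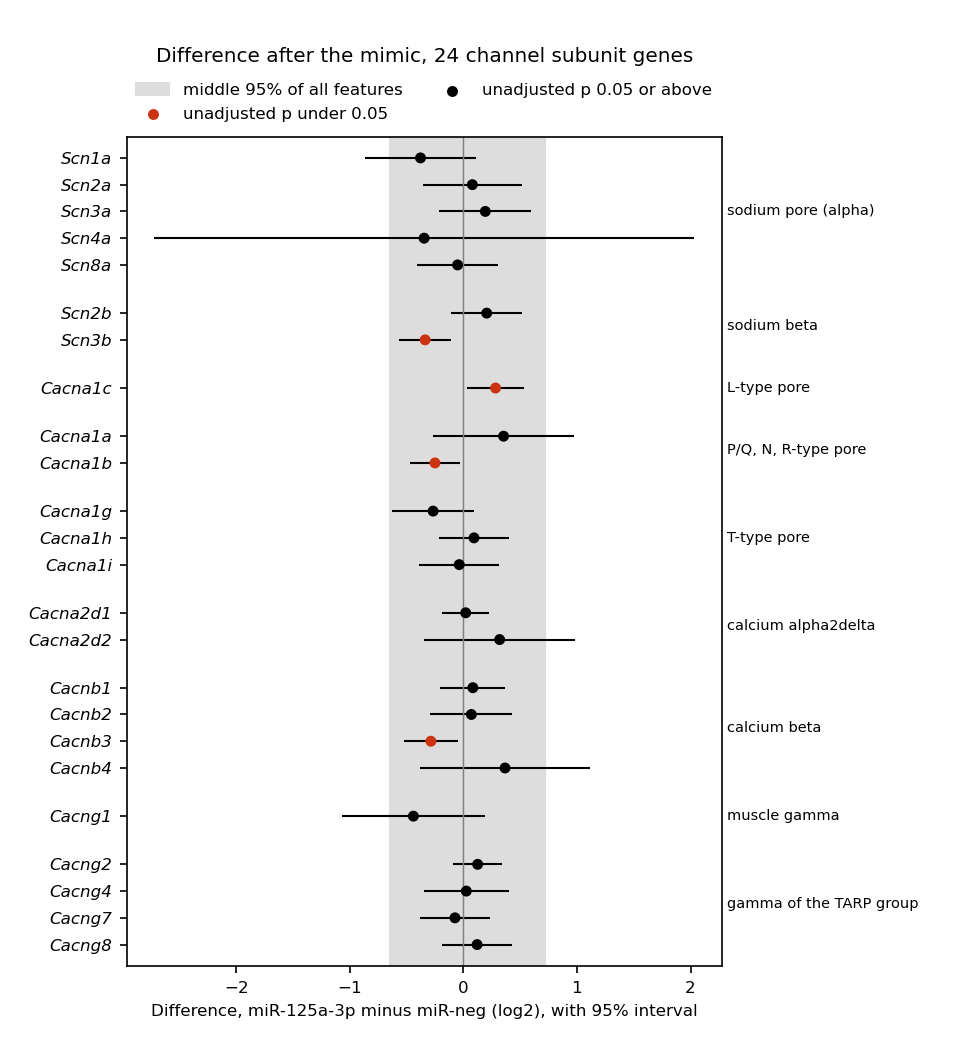
Log2 difference, miR-125a-3p minus miR-neg (x axis), with its 95% interval from limma (n = 2 per group) for 24 channel genes in the fit, over a grey band that holds the middle 95% of all 23155 features. Every point lies inside the band, from -0.65 to 0.72, and the 4 red points, at an unadjusted p under 0.05, have intervals that leave out 0.

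Counts over the tested channel genes are given beside those over all features. The median difference over the 25 was 0.071 against 0.013 over all features, and 15 of the 25 lay above 0 where 52.5% of all features did. The groups did not overlap in 10 of the 25, 4 higher and 6 lower, where they did not overlap in 52.9% of all features, 28.7% higher and 24.1% lower. The median size of the difference was 0.21 over the channel genes and 0.15 over all features. Over the 23 genes detected on all 4 arrays, a choice that leaves out Cacna1a, which passed the filter through its mimic arrays alone, the median was again 0.071. It was 0.013 without miR-neg replicate 1, 0.032 without miR-neg replicate 2, 0.033 with the mean of a gene's probes and 0.0057 with normexp, so its size rests on single arrays and on the processing.

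A gene that misses the threshold is not shown to be equal between the groups, and the intervals say how much these arrays could leave unseen. The 95% interval of the difference included 0 for 20 of the 25 genes. It lay within 0.5 on either side of 0 for 11 genes, among them Cacna2d1, Cacnb1 and Cacng4, and within 1 on either side for 22. The 3 with wider intervals were Scn4a, Cacnb4 (-0.38 to 1.12) and Cacng1 (-1.07 to 0.19). Intervals were not adjusted for the number of genes.

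Arrays were also compared in pairs, within and across the groups. Over the 25 channel genes, the SD of the log2 difference between arrays was 0.57 for the miR-neg pair and 0.22 for the miR-125a-3p pair, and from 0.30 to 0.48 for pairs across the groups. Without Scn4a it was 0.32 and 0.19 within the groups and from 0.27 to 0.36 across them, so pairs across the groups were not all further apart than the miR-neg pair. Over all features every pair across the groups was further apart (0.39 to 0.45) than either pair within a group (0.34 and 0.33).

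Further probes give a second measurement of a gene. Of the 38 genes, 11 had several probes, and for 9 of these more than 1 probe was well above background on at least 2 arrays, which gave 10 further probes. The kept probes of 6 genes shared a sign, and those of Cacna1c, Cacna1i and Scn3a did not. The second probe of Scn3a differed by -0.12 and that of Cacna1i by 0.013. Scn2b, with 0.46 at a second probe that was well above background on 3 arrays, and Scn2a, with 0.29 at a second probe, lay further above 0 there than at the brightest probe.

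**Figure D4:**
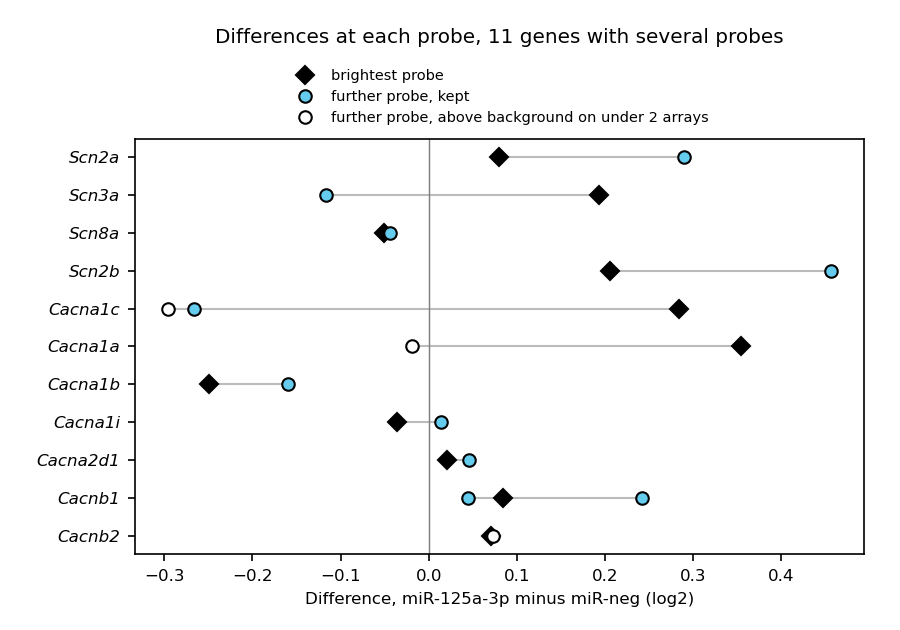
Log2 difference, miR-125a-3p minus miR-neg (x axis), at every probe of the 11 channel genes with several probes, with the brightest probe as a black diamond, further kept probes as blue circles and probes well above background on fewer than 2 arrays as white circles. The probes of Cacna1c spread over both sides of 0, from -0.30 to 0.28, while those of Scn8a and Cacna2d1 lie close together.

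None of the genes whose proteins anchor, traffic or modulate these channels, or form related channels, passed the test. Of 35 listed partner genes, 24 had a probe and 21 were tested. In limma 0 passed, 3 (14.3%) had an unadjusted p under 0.05, beside 19.5% of all features, and the median difference was 0.022. The 4 with the smallest p were Catsper2, a gene of the sperm calcium channel family (0.79, SE 0.10, adjusted p = 0.0711), Ank3, which encodes the ankyrin that clusters sodium channels at nodes and axon initial segments (-0.53, SE 0.08, adjusted p = 0.0794), the adhesion gene Cntn1 (-0.27, SE 0.08, adjusted p = 0.209) and the cation channel gene Pkd2 (0.24, SE 0.09, adjusted p = 0.261).

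Ank3 had signals of 1.02 and 1.08 in miR-neg and 0.53 and 0.50 in miR-125a-3p, and the groups were well apart. With settings changed, its adjusted p in limma was 0.0455 on probes above background on all 4 arrays, 0.00324 with a variance trend and 0.00584 with normexp, in a range from 0.00324 to 0.333 over all settings. Catsper2 had signals of -1.15 and -1.16 in miR-neg and -0.26 and -0.47 in miR-125a-3p. Its adjusted p in limma was 0.0361, 0.0019 and 0.00222 in the same order, in a range from 0.0019 to 0.282. Gem, an inhibitor of calcium channel trafficking that was chosen after its values were seen, gave -1.08 and -5.35 in miR-neg and -5.05 and -5.65 in miR-125a-3p. Like Scn4a, it stood high on miR-neg replicate 1 alone.

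Of 31 listed genes that act downstream of calcium entry, all 31 had a probe and 29 were tested. In limma 0 passed and 10 had an unadjusted p under 0.05, 6 higher and 4 lower (34.5%, beside 19.5% of all features), and the median difference was 0.11. The 4 with the smallest p were the calmodulin kinase gene Camk1g (0.53, SE 0.08, adjusted p = 0.0839), the calcineurin regulator Rcan3 (-0.47, SE 0.08, adjusted p = 0.102), the calcium sensor gene Hpca (0.34, SE 0.08, adjusted p = 0.15) and the calcineurin-dependent transcription factor gene Nfatc1 (-0.31, SE 0.08, adjusted p = 0.164). Camk1g had signals of 0.54 and 0.52 in miR-neg and 1.02 and 1.10 in miR-125a-3p, and passed in limma when detection on all 4 arrays was required (adjusted p = 0.0493), with a variance trend (0.00369) and with normexp (0.0064), in a range from 0.00369 to 0.345 over all settings. For Nfatc1 the adjusted p in limma was 0.028 with the trend and 0.0353 with normexp (range to 0.471). With the trend it was 0.0401 for the partner gene Cntn1 (range to 0.528), and with normexp 0.0415 for Rcan3 (range to 0.382).

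Channel RNA in a mixed culture can come from several cell types, and in total RNA fewer cells of a type and less RNA per cell cannot be told apart. All 9 OPC marker genes that had a probe, among them Pdgfra, Cspg4 and Olig2, were well above background on all 4 arrays. Most markers of other cell types were detected too. Of 10 oligodendrocyte, 12 astrocyte and 20 neuron markers with a probe, 1, 1 and 2 in that order were detected on 0 arrays. Detection alone therefore does not single out the labelled cell type. Of 20 neuron markers, 17 were tested and 0 passed in limma, while 5 had an unadjusted p under 0.05, 4 higher and 1 lower (29.4%, beside 19.5% of all features), and 13 lay above 0. Their summed level was 5.83 and 5.86 in miR-neg and 6.01 and 6.02 in miR-125a-3p (log2), and the glutamate transporter genes Slc17a6 and Slc17a7 were detected on 0 arrays. Of 11 skeletal and cardiac muscle markers, 8 were tested and 0 passed, with summed levels of -1.02 and -1.01 in miR-neg and -1.07 and -0.88 in miR-125a-3p, and Myod1 and Myh2 were detected on 0 arrays. Myog, Myh6, Myh7, Actn2 and Tnnt2 were detected on all 4 arrays, and Myh1, on 3 arrays, had the smallest p of the list, with a difference of -2.04 (SE 0.19, adjusted p = 0.0524 in limma). Markers of other glia and of stromal cells differed more widely between the groups. Of 9 oligodendrocyte markers tested, 9 lay below 0, with a median of -0.69, 7 at an unadjusted p under 0.05 and 1 past the threshold (Aspa, lower), and summed levels of 9.58 and 9.62 in miR-neg and 9.01 and 8.95 in miR-125a-3p. Of 12 astrocyte markers, 11 were tested and 10 of these lay above 0, with a median of 0.66. At an unadjusted p under 0.05 in limma 7 were higher, and 1 passed the threshold (Aldh1l1). The summed astrocyte levels were 7.57 and 7.66 in miR-neg against 7.78 and 7.79 in miR-125a-3p. Of 12 microglial and macrophage markers, 10 were tested and 7 of these lay above 0, with a median of 1.31. At an unadjusted p under 0.05 in limma 6 were higher, and 1 passed the threshold (C1qa). Of these 6, C1qc was well above background on 2 arrays only (-7.07 and -5.79 in miR-neg, -4.64 and -4.86 in miR-125a-3p). It may thus have entered the fit through its mimic arrays alone. Ptprc was detected on 0 arrays and Csf1r on 1. The summed microglial levels were 1.98 and 2.18 in miR-neg against 2.16 and 2.33 in miR-125a-3p. These shares are above that of all features, while the summed microglial levels of the groups overlapped. The sums in this paragraph add signals before log2 is taken, so the brightest probes of a list weigh most. In the microglial list the brightest was Cx3cr1 (0.91 and 1.03 in miR-neg, 0.83 and 0.98 in miR-125a-3p). The 6 microglial genes higher at an unadjusted p under 0.05 in limma had dimmer probes. In the astrocyte list the brightest was Aldoc (7.29 and 7.38 against 7.43 and 7.45). Of 11 markers of fibroblasts, pericytes and smooth muscle, 8 were tested and 7 of these lay above 0, with a median of 0.78. Dcn and Lum were detected on 0 arrays and Rgs5 on 1. At an unadjusted p under 0.05 in limma 5 were higher, and 1 passed the threshold (Tagln). Of these 5, Pdgfrb was well above background on 2 arrays only (-6.01 and -5.64 in miR-neg, -4.81 and -5.01 in miR-125a-3p). The summed levels of this list were -0.43 and -0.34 in miR-neg against 0.25 and 0.50 in miR-125a-3p. Of 8 endothelial markers, 5 were tested, and 0 of these had an unadjusted p under 0.05 or passed in limma. Pecam1 was detected on 0 arrays, and Flt1 and Cldn5 on 1. The part of any of these lists in the channel values was not tested.

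**Figure D5:**
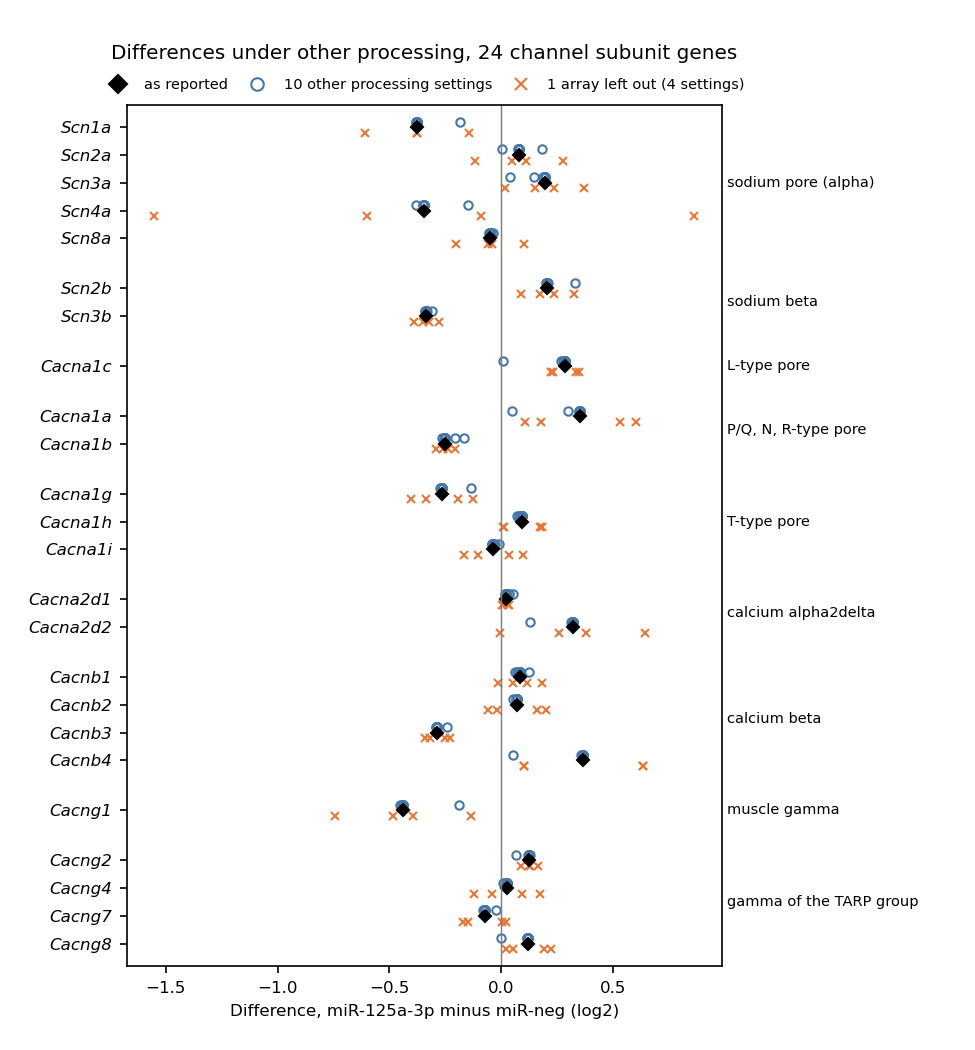
Log2 difference, miR-125a-3p minus miR-neg (x axis), of each of 24 channel genes as reported (black diamonds), under 10 other processing settings (blue circles) and with 1 array left out (orange crosses). The crosses of Scn4a reach from -1.55 to 0.86. Scn3b and Cacnb3 stay below 0 throughout, as do Scn1a, Cacna1b, Cacna1g and Cacng1.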

How the data were processed

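Per the file headers, the authors' scanner software, Agilent Feature Extraction 10.7.3.1, subtracted background from each spot's intensity and removed spatial trends. A deposited table of log2 values served as an alternative. Its columns have their 75th percentile at 0 and medians from -4.15 to -4.07, and 100% of probes match the scanner values to within 0.01 after 1 constant per array, so its scale and direction are those of the scanner values. How it was made is not given in the sources used here. Here control spots and spots with outlier flags were left out, log2 values of a probe's spots were averaged, and the array's own 75th percentile was taken away. Of 45598 probes, 65 were left out for flagged spots and 27250 passed a minimum of 2 arrays with the well-above-background flag. RefSeq accessions paired 21109 probes with GRCr8 symbols. Probes for accessions outside that table could not be assigned to a channel gene. Groups were tested in R 4.3.3 by limma 3.58.1 (two-sided, Benjamini-Hochberg over 23155 features). The same test was also run on simulated data, built from the variances and mean signals of the real fit. An exact permutation test of 2 against 2 cannot give a p below 0.333. The members and lists were chosen with earlier results of these data known. Results of 2 members are not reported here, though counts and medians over the members include them. All other members are named, with full statistics for those among the 8 smallest p-values and the 6 brightest probes, and of each other list the 4 smallest p-values. The number of arrays limits the precision, and 0 spots were saturated. All 4 arrays came from 1 slide and 1 scan.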

Additional observations from a re-analysis of the deposited data

How the results depend on the processing

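The count of 0 channel genes past the threshold was 2 (0 higher, 2 lower, Scn3b and Cacnb3) with a variance trend and 0 in each of the other settings run, including when 1 array was left out. The count over all features, 159 as reported (88 higher, 71 lower), was 613 (283 and 330) when all 4 arrays had to be above background, 0 without a filter (3956 at an unadjusted p under 0.05), 83 (37 and 46) with quantile normalization, 2048 (1017 and 1031) under a variance trend, 1601 (772 and 829) when normexp was used, and between 0 and 0 with 1 array left out, with 2748 to 4116 at an unadjusted p under 0.05 in limma. Those fits take the spread of a lone array from the opposite group. A replicate block gave 0, with 3968 at an unadjusted p under 0.05, and 3 of 25 channel genes had one. The deviations of same-numbered arrays correlated at 0.0505, a single value for both pairs that cannot show whether the numbers pair the samples. Same-numbered arrays also shared a position along the other slide axis.

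Of the 25 channel genes, 15 kept their sign in every setting that measured them. With normexp, 14 differences were over 1.5 times smaller and 1 over 1.5 times larger, and Cacng8 changed sign (-0.0023). The other 9 changed sign with 1 array left out, with ranges of -0.17 to 0.096 for Cacna1i, -0.0042 to 0.64 for Cacna2d2, -0.016 to 0.18 for Cacnb1, -0.058 to 0.20 for Cacnb2, -0.12 to 0.18 for Cacng4, -0.17 to 0.023 for Cacng7, -0.12 to 0.28 for Scn2a, -1.55 to 0.86 for Scn4a and -0.20 to 0.10 for Scn8a. The cause was not tested. Normexp used median spot signals and was chosen after seeing the data, since the planned version on mean signals could not be run with the columns used here. A block on the slide could not be run with 1 slide.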
